A study of Mus musculus with 36 samples.

Results

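The stem cell transcription regulators described here are Mecom, Hlf, Gata2 and Mllt3, which encode nuclear proteins known for keeping blood stem cells in the stem cell state. These are 4 of the 18193 genes measured here, and all probe sets (groups of short probes read as a single value) annotated to exactly 1 of them were taken: 10 of the 45037 probe sets tested, with 0 probe sets naming a member beside another gene. Mecom had 3 of them, Hlf 2, Gata2 2 and Mllt3 3. The study hybridised RNA of 8 sorted populations, from marrow stem cells to thymocytes and B cell progenitors, to 36 single-colour arrays. All mice were of the strain C57BL6, with no added allele or agent named in the labels. The age label is 1 week on all arrays, also on those titled Adult_ETP, and the sex label covers both sexes. The populations were as follows. LSK is a bone marrow population (LSKFlt3hi IL7R+) labelled as thymic seeding progenitors, on 6 arrays. CLP, for which the labels give a putative role in seeding the thymus, was on 4 arrays, and pro-B cells (Pro_B), a B cell progenitor, on 3. ETP (ETPFlt3hi) are early thymic progenitors, on 6 arrays, and adult ETP (Adult_ETP) were on 2. DN2 (DN2Kit+) and DN3 thymocytes, which follow ETP in the thymus, were on 3 and 6 arrays. HSC are the haematopoietic stem cells (LSKFlt3-CD48-CD150+), on 6 arrays, and are the population against which the others were set first.

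The arrays fall into 2 deposit sets by the style of their labels. Set 1 holds 15 arrays of 5 populations (HSC, LSK, ETP, DN2 and DN3, 3 arrays each), each a pool of several mice per the labels. Set 2 holds 21 arrays of 7 populations (HSC, LSK, pro-B, ETP and DN3 with 3 arrays each, CLP with 4 and adult ETP with 2) and carries no such remark. Array medians were 5.12 to 5.22 in set 1 and 5.84 to 5.95 in set 2, so the sets were normalized apart and levels are given within a set. All levels are deposited log2 values. Replicates HSC, LSK, ETP and DN3 1 to 3 are of set 1 and 4 to 6 of set 2. No label says that arrays of set 2 came from separate animals, so p-values measure the spread between these samples. In a sorted population of many cells, fewer cells with a transcript and less transcript per cell cannot be told apart.

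Mecom encodes zinc finger proteins (EVI1 and a longer form with a PR domain) that blood stem cells need to maintain themselves. Hlf encodes a basic leucine zipper factor of the PAR family, which takes part in holding stem cells in a resting state. Gata2 encodes a zinc finger factor that binds GATA letters in DNA, and it acts with Tal1, Lyl1, Lmo2, Erg, Fli1 and Runx1 at the enhancers of stem and progenitor cells. Mllt3 encodes AF9, a reader of acylated histones that brings the transcription elongation machinery and the histone methyltransferase Dot1l to genes, and it is known in human cells for upholding stem cell self-renewal. When stem cells enter the lymphoid lineages, programmes of this kind are turned down and those of B or T cells are turned on.

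The genes lie on 4 chromosomes of GRCm38.p6: Mecom on chromosome 3 from 29951296 to 30509759, Hlf on chromosome 11 from 90336535 to 90390917, Gata2 on chromosome 6 from 88193891 to 88207032 and Mllt3 on chromosome 4 from 87769925 to 88033407. The 250 bases before a transcription start of each gene are shown because the 4 genes shared their highest level in HSC; they come from RefSeq, build GRCm38.p6, on the strand of the gene, with GATA letters (TGATAA) and E boxes (CANNTG, the letters read by Tal1-type factors) in capitals. Mecom is shown at both of its starts, which lie 496555 bases apart.
Mecom first start, chr3:30509760-30510009, minus strand: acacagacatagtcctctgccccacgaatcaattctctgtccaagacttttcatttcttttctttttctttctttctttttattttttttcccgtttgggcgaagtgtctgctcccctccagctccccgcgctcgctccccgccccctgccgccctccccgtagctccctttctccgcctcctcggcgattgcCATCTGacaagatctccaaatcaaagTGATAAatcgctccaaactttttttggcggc
Mecom second start, chr3:30013205-30013454, minus strand: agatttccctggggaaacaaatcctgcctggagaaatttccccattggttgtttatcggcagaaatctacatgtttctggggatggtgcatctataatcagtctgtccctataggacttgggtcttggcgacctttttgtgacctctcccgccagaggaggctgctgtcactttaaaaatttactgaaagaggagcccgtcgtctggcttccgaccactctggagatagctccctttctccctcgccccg
Hlf, chr11:90390918-90391167, minus strand: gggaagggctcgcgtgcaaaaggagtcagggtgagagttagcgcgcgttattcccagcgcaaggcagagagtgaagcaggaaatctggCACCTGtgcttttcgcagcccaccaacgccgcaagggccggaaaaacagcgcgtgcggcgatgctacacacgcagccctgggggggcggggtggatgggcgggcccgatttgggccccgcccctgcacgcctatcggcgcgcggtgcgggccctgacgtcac
Gata2 first start, chr6:88193641-88193890, plus strand: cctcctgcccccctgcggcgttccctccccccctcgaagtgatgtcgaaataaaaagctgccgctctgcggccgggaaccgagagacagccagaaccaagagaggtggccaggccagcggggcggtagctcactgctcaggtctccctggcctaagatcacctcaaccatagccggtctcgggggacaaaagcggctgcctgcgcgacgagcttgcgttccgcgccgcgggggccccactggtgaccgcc
Mllt3 first start, chr4:88033408-88033657, minus strand: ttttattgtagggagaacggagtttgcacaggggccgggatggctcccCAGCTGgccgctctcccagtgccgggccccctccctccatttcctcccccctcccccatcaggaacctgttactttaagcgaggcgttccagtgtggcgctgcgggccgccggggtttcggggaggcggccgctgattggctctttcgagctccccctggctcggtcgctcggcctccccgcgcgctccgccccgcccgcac
The first Mecom window held TGATAA with its first base at position -31 from the start and the E box CATCTG at -57. The Hlf window held the E box CACCTG at -162 and the first Mllt3 window CAGCTG at -202, while the second Mecom window and the first Gata2 window held neither motif. Of the windows not shown, the second of Gata2 held neither motif. The second of Mllt3 held 3 E boxes, CATCTG at -208, CAATTG at -78 and CATGTG at -60. Among 32851 promoter windows of the same length, 7.94% held TGATAA and 66.2% an E box on either strand. The letters AGATAA (in 9.99% of windows), TGTGGT (Runx, 14.0%), AGGAAG (Ets, 29.5%) and TTACNTAA (PAR leucine zipper, 2.06%) were in none of the 7 member windows, which include a second start each of Gata2 and Mllt3. GC content was 50.8% and 50.4% at the Mecom starts, 67.2% at Hlf, 67.2% at the first Gata2 start and 69.2% at the first Mllt3 start. At the second starts of Gata2 and Mllt3 it was 74.0% and 45.2%, beside a median of 52.4% over all windows. These matches describe the letters alone.

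Stem cell and T lineage markers went with the labels in most arrays, while B lineage markers were above HSC in LSK and CLP as well as in pro-B cells. The mean of 6 measured stem cell markers (Slamf1, Procr, Tek, Fgd5, Esam and Vwf) was at most 6.06 in the later populations, against 8.96 to 9.34 on HSC arrays. T lineage markers averaged 10.85 to 12.30 on DN2 and DN3 arrays and at most 5.63 elsewhere, ETP included, and B lineage markers 11.33 to 11.43 on pro-B arrays. B lineage markers averaged 6.66 to 6.80 on LSK arrays of set 1, above every HSC array of that set, and 8.96 to 9.28 on LSK and 7.26 to 8.60 on CLP arrays of set 2, against 5.79 to 6.08 in HSC. Of 6 measured, 6 were called higher than in HSC in LSK (3.36% of all probe sets) and 5 in CLP (2.3%). In ETP 6 were called lower than in LSK (0.773%). They thus moved beside the members' differences in these comparisons, where their part was not tested. Neutrophil markers varied within the marrow populations: 5.08 to 7.63 on LSK arrays of set 1, 6.06 to 8.63 on CLP arrays and, among HSC, 4.01 to 5.98 in set 1 and 4.80 to 7.60 in set 2. Some arrays stood apart within their population. CLP 3 had the highest stem cell mean outside HSC (6.06, against 4.90 to 5.21 on the other CLP arrays), and LSK 1 and LSK 2 had 4.81 and 4.78 against 4.18 on LSK 3. Endothelium and stroma markers averaged 4.35 to 5.45 in the later populations of set 1 and 5.26 to 6.25 in those of set 2, against 5.03 to 6.47 and 6.65 to 8.16 on HSC arrays of these sets. HSC 2, HSC 4 and HSC 5 were highest. As a guide to low levels, 14 genes of other tissues had mean values of 2.61 to 8.30 (set 1) and 3.35 to 9.48 (set 2), so a level alone does not show whether a gene was silent.

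**Figure D1:**
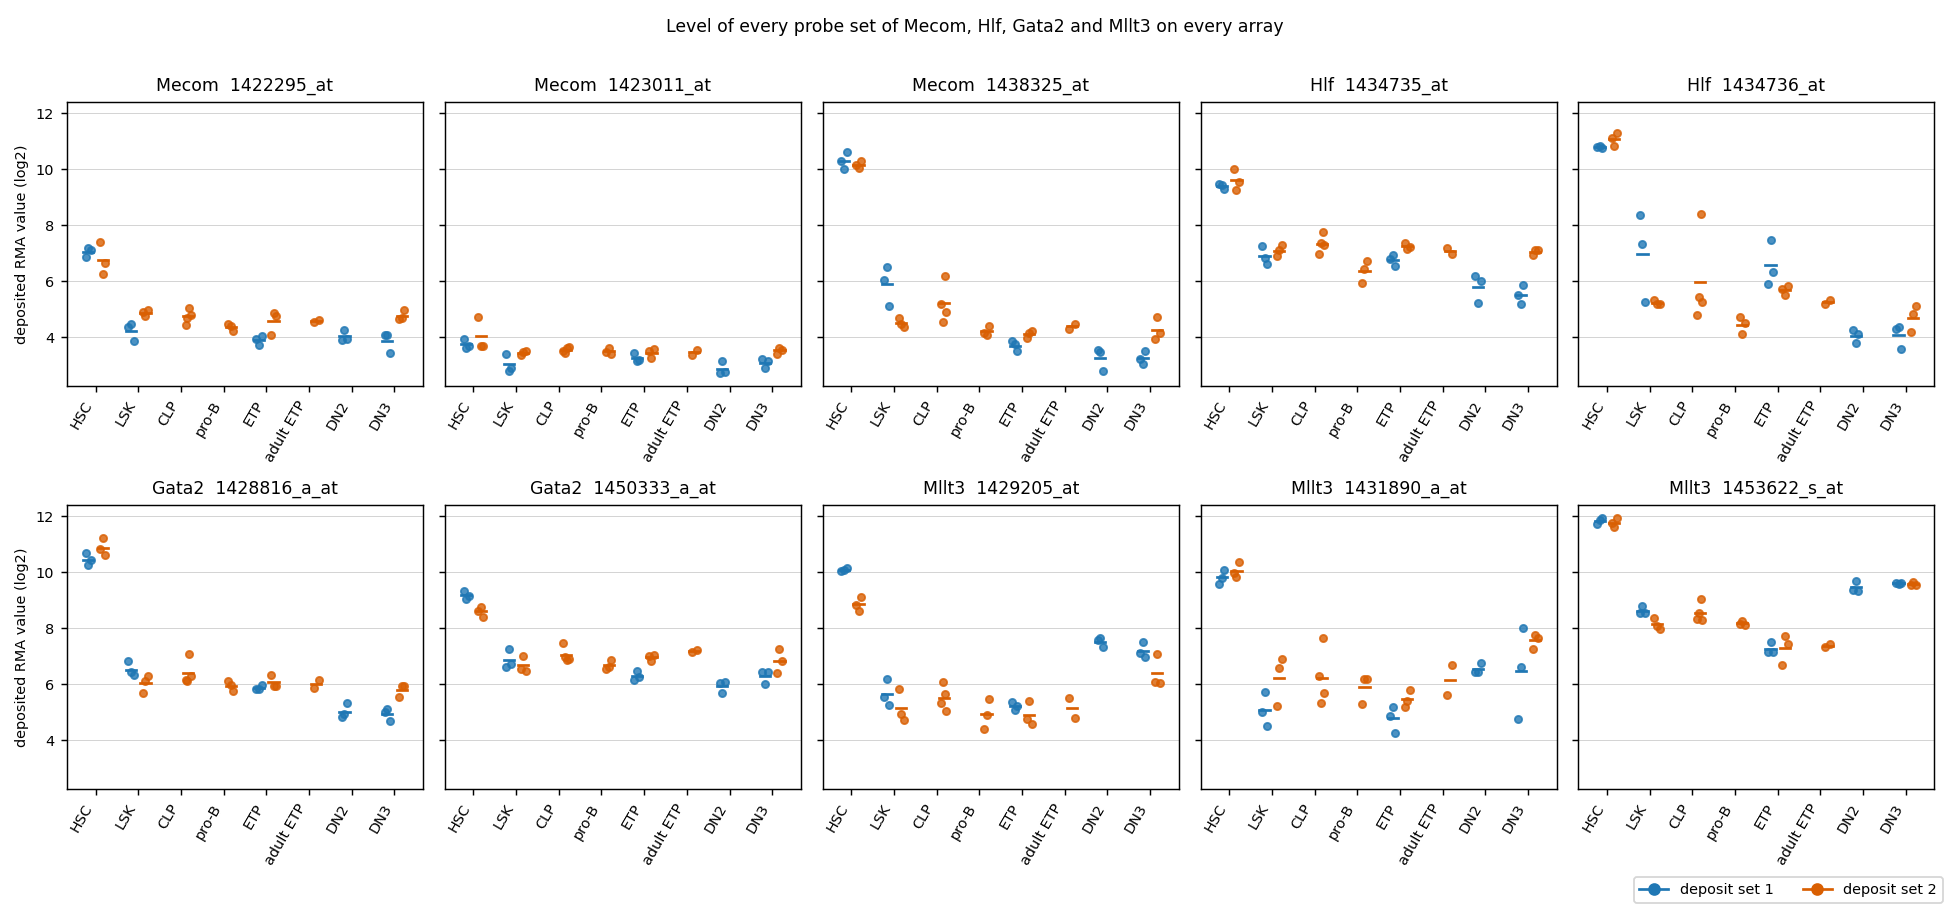
Deposited log2 value (vertical axis) of each of the 10 probe sets on each of the 36 arrays, by population, with set 1 in blue and set 2 in orange; horizontal bars are means of a population within a set. In every panel except Mecom 1423011_at the HSC points stand clear above all others, and Mllt3 stands higher in DN2 and DN3 than in ETP.

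All 4 genes were far lower in every later population than in HSC. Called here means an adjusted p under 0.05 (limma, Benjamini-Hochberg over all 45037 probe sets) together with a change of 2-fold or more, a log2 difference of 1. In each of the 7 comparisons with HSC, 9 of the 10 member probe sets were called lower and 0 higher. Over all probe sets, 4.04% were called lower and 3.36% higher in LSK, 4.13% and 2.3% in CLP, and 6.26% and 6.65% in pro-B cells. In ETP 4.49% were lower and 3.45% higher, in adult ETP 4.06% and 2.06%, in DN2 5.72% and 5.41%, and in DN3 6.67% and 3.98%. The members' median difference was -3.74 in LSK, -4.46 in ETP and -2.79 in DN3, against 0.01, 0.03 and 0.09 over all probe sets. For all 10 probe sets, every array of the later population lay below every HSC array of its set in LSK, CLP, pro-B, ETP, adult ETP, DN2 and DN3. The share of all probe sets separated in this way was not counted, so such separations are only described, here and below. These 7 comparisons share the HSC arrays. The single uncalled probe set, Mecom 1423011_at, differed by -0.51 to -0.85 with adjusted p from 0.000311 to 0.0418, under 2-fold.

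Mecom was lower in both marrow progenitor populations than in HSC. At 1438325_at, its probe set with the highest mean, LSK stood at 6.05, 6.51 and 5.12 in set 1 and at 4.67, 4.47 and 4.36 in set 2. The HSC arrays stood at 10.27, 10.02 and 10.61 in set 1 and at 10.14, 10.03 and 10.28 in set 2. Every LSK array lay more than 3 log2 units below the lowest HSC array, and the LSK arrays of set 1 spread more widely than those of set 2. The fitted difference was -5.02 ± 0.31 (SE, adjusted p = 3.12e-14), a 32.6-fold lower level in LSK. CLP stood at 5.20, 4.54, 6.20 and 4.92, with a difference from HSC of -5.00 ± 0.36 (adjusted p = 3.45e-12). CLP 3, the array with the highest stem cell markers, was the highest of them.

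Mecom was low in the thymic and B lineage populations as well. In ETP 1438325_at stood at 3.85, 3.75 and 3.50 in set 1 and 3.99, 4.17 and 4.24 in set 2, which is lower than HSC by a log2 difference of -6.31 ± 0.31 (adjusted p = 1.22e-16). DN2 stood at 3.55, 3.48 and 2.80 and DN3 at 3.21, 3.05 and 3.52 in set 1, against 10.02 to 10.61 in HSC. In set 2, DN3 stood at 3.94, 4.71 and 4.15, pro-B cells at 4.15, 4.08 and 4.39, and adult ETP at 4.31 and 4.47. The differences from HSC were -6.96 ± 0.39 in DN2, -6.46 ± 0.31 in DN3, -6.00 ± 0.39 in pro-B cells and -5.82 ± 0.45 in adult ETP. Between neighbours in the order of fitted levels (HSC, CLP, LSK, adult ETP, pro-B, ETP, DN3, DN2) only the step from HSC to CLP was called. DN2 shares no set with CLP, adult ETP or pro-B cells, so its place against these rests on the fitted set effect.

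The other Mecom probe sets differed in size but not in direction. At 1422295_at the 7 later populations were lower than HSC by differences of -2.36 to -2.79, and the HSC arrays spanned 6.25 to 7.38. At 1423011_at the HSC arrays stood at 3.94, 3.63 and 3.70 in set 1 and at 4.74, 3.67 and 3.67 in set 2. HSC 4 stood apart from the other HSC arrays of its set there. Across the 36 arrays, with the set effect removed, 1422295_at correlated with 1438325_at at r = 0.933, and the 3 pairs of Mecom probe sets ranged from 0.709 to 0.933, as a description.

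ETP were lower than LSK for Mecom 1438325_at, a call that rested on set 1. The fitted difference was -1.28 ± 0.31 (adjusted p = 0.0118), with -2.19 within set 1 and -0.37 within set 2. In both sets all ETP arrays lay below all LSK arrays. The change in this difference between the sets, 1.82, had an adjusted p of 0.204 (limma interaction). The call was lost without LSK 1 (-1.11, adjusted p = 0.0507) or LSK 2 (-1.01, adjusted p = 0.0517), the LSK arrays of set 1 with the higher stem cell markers, and within set 2 alone.

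Hlf was also far lower outside HSC, but at 1434736_at some progenitor arrays kept intermediate values. LSK stood at 8.34, 7.35 and 5.25 in set 1 and at 5.32, 5.19 and 5.17 in set 2. The HSC arrays stood at 10.79, 10.83 and 10.74 in set 1 and at 11.11, 10.84 and 11.30 in set 2. The difference was -4.83 ± 0.48 (adjusted p = 2.27e-09), 28.4-fold, although the LSK arrays of set 1 spread over 3 log2 units. CLP stood at 4.80, 5.45, 8.41 and 5.26, and CLP 3 was again the highest. Its difference from HSC was -4.74 ± 0.56 (adjusted p = 1.52e-07).

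ETP of set 1 also held intermediate Hlf levels, and DN2 and DN3 lay below them. ETP stood at 5.91, 7.47 and 6.31 in set 1 and at 5.71, 5.52 and 5.83 in set 2. DN2 stood at 4.25, 3.79 and 4.13, all below the ETP arrays of set 1, with a difference of -2.28 ± 0.61 (adjusted p = 0.0245). DN3 stood at 4.28, 4.38 and 3.57 in set 1 and at 4.20, 4.82 and 5.10 in set 2, in each set all below the ETP arrays. The difference of DN3 from ETP, a comparison chosen after the data were seen, was -1.73 ± 0.48 (adjusted p = 0.0122), with -2.49 within set 1 and -0.98 within set 2. The DN2 call was lost without ETP 2, the highest ETP array (-1.98, adjusted p = 0.0867), and without any DN2 array (adjusted p = 0.0667, 0.132 and 0.0801 without DN2 1, DN2 2 and DN2 3), and after quantile normalization (-1.93, adjusted p = 0.0933). Within set 2 alone the DN3 difference had adjusted p = 0.432.

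The other Hlf probe set, 1434735_at, moved the same way over a narrower range. It had the higher mean over all arrays (7.19 against 6.26), and LSK differed from HSC by -2.51 there, 5.68-fold. The later populations were lower than HSC by differences of -2.46 in CLP to -3.45 in pro-B cells. Set 2 had 6.93 to 7.10 in DN3, against 9.26 to 9.99 in HSC. Set 1 had 5.19 to 5.85 in DN3, against 9.30 to 9.48 in HSC. The difference of DN3 from HSC was thus -3.89 in set 1 and -2.55 in set 2, and of the 30 member tests for a difference between sets in LSK, ETP and DN3 against HSC it was the only one past the threshold (adjusted p = 0.0324). For that contrast 0.486% of all probe sets were past it. From ETP, 1434735_at in DN2 differed by -0.89 (adjusted p = 0.059) and in DN3 by -0.72 (adjusted p = 0.0194), both under 2-fold. The DN3 difference was -1.24 within set 1 and -0.19 within set 2, and limma called it within set 1 alone (adjusted p = 0.00648). The 2 Hlf probe sets correlated at r = 0.948 across arrays.

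Gata2 was lower than in HSC in all 7 later populations, and none of the planned steps after HSC was called for it. At 1428816_a_at LSK stood at 6.82, 6.42 and 6.32 in set 1 and at 5.69, 6.12 and 6.28 in set 2, against 10.68, 10.24 and 10.42 and against 10.81, 11.20 and 10.63 in HSC. The difference was -4.39 ± 0.19 (adjusted p = 1.19e-17), 20.9-fold. CLP stood at 6.14, 6.10, 7.08 and 6.30, with a difference of -4.38 ± 0.23. Pro-B cells stood at 6.10, 5.96 and 5.77 (-4.84), and adult ETP at 5.87 and 6.15 (-4.78). These populations lay within a narrow range, and CLP 3 was the highest array of set 2 outside HSC.

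In the thymus Gata2 stayed low. ETP stood at 5.82, 5.82 and 5.98 in set 1 and at 6.33, 5.94 and 5.93 in set 2, and the difference from HSC was -4.69 ± 0.19 (adjusted p = 2.2e-18). DN2 stood at 4.82, 4.93 and 5.33 (-5.51) and DN3 at 4.99, 5.13 and 4.68 in set 1 and 5.55, 5.93 and 5.95 in set 2 (-5.29). DN2 arrays all lay below the ETP arrays of set 1, and the difference of -0.82 had adjusted p = 0.0569. DN2 also lay below LSK (-1.12, adjusted p = 0.00261) and CLP (-1.13, adjusted p = 0.0164) at 1428816_a_at, and below CLP (-1.01, adjusted p = 0.0314) and adult ETP (-1.15, adjusted p = 0.0406) at 1450333_a_at. These pairs were outside the planned comparisons. DN2 shares no set with CLP or adult ETP, so its differences from these 2 populations rest on the fitted set effect. At 1450333_a_at the later populations were lower than HSC by differences of -1.75 in adult ETP to -2.90 in DN2, and the HSC arrays spanned 8.41 to 9.32. This probe set had the higher mean over all arrays (7.04 against 6.67), and LSK differed from HSC by -2.12 there, 4.33-fold. The 2 probe sets correlated at r = 0.925.

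Mllt3 followed another course: its lowest fitted level was in ETP, and it was higher again in DN2 and DN3. At 1453622_s_at LSK stood at 8.53, 8.78 and 8.53 in set 1 and at 8.37, 8.08 and 7.96 in set 2, against 11.71, 11.85 and 11.92 and against 11.76, 11.59 and 11.94 in HSC. The difference was -3.42 ± 0.14 (adjusted p = 1.73e-18), 10.7-fold. CLP stood at 8.33, 8.53, 9.03 and 8.28 (-3.18 ± 0.16) and pro-B cells at 8.14, 8.27 and 8.13 (-3.55 ± 0.18). The marrow progenitors thus held Mllt3 well below HSC on every array.

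ETP had still less Mllt3. They stood at 7.14, 7.50 and 7.16 in set 1 and at 6.69, 7.73 and 7.43 in set 2, and adult ETP at 7.32 and 7.42. The differences from HSC were -4.52 ± 0.14 in ETP (adjusted p = 1.68e-21) and -4.36 ± 0.20 in adult ETP (adjusted p = 1.85e-16). ETP lay below all LSK arrays of their set, with a fitted difference of -1.10 ± 0.14 (adjusted p = 1.96e-06), and -1.35 and -0.86 within sets 1 and 2. Without ETP 4, the lowest array, the difference was -0.99, just under 2-fold, and within set 2 alone it had adjusted p = 0.0761. At the other Mllt3 probe sets ETP differed from LSK by -0.34 (1429205_at, adjusted p = 0.673) and -0.54 (1431890_a_at, adjusted p = 0.717), with overlapping arrays.

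In DN2 all 3 Mllt3 probe sets were higher than in ETP. At 1453622_s_at DN2 stood at 9.38, 9.69 and 9.32, against 7.14, 7.50 and 7.16 in ETP of the same set, and the difference was 2.12 ± 0.18 (adjusted p = 2.26e-10), 4.35-fold. At 1429205_at DN2 stood at 7.57, 7.64 and 7.34, against 5.38, 5.07 and 5.23 in ETP (2.09 ± 0.29, adjusted p = 8.18e-06). At 1431890_a_at DN2 stood at 6.42, 6.45 and 6.76, against 4.88, 5.19 and 4.26 in ETP (1.82 ± 0.50, adjusted p = 0.0282). No DN2 array overlapped with an ETP array of set 1 at any of these probe sets, which is given as a description. The call at 1431890_a_at was lost without DN2 1, DN2 2, DN2 3 or ETP 3 (adjusted p = 0.0788, 0.09, 0.133 and 0.073) and within set 1 alone (adjusted p = 0.201).

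DN3 was higher than ETP as well, in the comparison chosen after the data were seen. At 1453622_s_at DN3 stood at 9.62, 9.59 and 9.61 in set 1 and at 9.54, 9.66 and 9.54 in set 2, the narrowest spread of any population on this probe set within set 1. Against ETP the difference was 2.32 ± 0.14 (adjusted p = 1.93e-14), with 2.34 within set 1 and 2.30 within set 2. At 1429205_at the difference was 1.73 ± 0.23 (adjusted p = 9.12e-07), and no DN3 array overlapped with an ETP array of its set. At 1431890_a_at it was 1.89 ± 0.39 (adjusted p = 0.000644), where DN3 of set 1 stood at 4.77, 6.61 and 8.01 and DN3 1 overlapped with ETP. Within set 1 alone that difference was 1.69 (adjusted p = 0.123), no longer called. The level of Mllt3 in DN3 remained below HSC, by a log2 difference of -2.20 ± 0.14 (adjusted p = 3.26e-14) at 1453622_s_at, and that of DN2 by -2.40 ± 0.18. In the order of fitted levels at this probe set (HSC, DN3, DN2, CLP, LSK, pro-B, adult ETP, ETP), the step from HSC to DN3 was the only neighbouring one called. CLP stood below DN2 by -0.78 (adjusted p = 0.0211) and adult ETP below pro-B cells by -0.81 (adjusted p = 0.0133), both under 2-fold. DN2 shares no set with CLP, so that difference and the place of DN2 in this order rest on the fitted set effect.

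**Figure D2:**
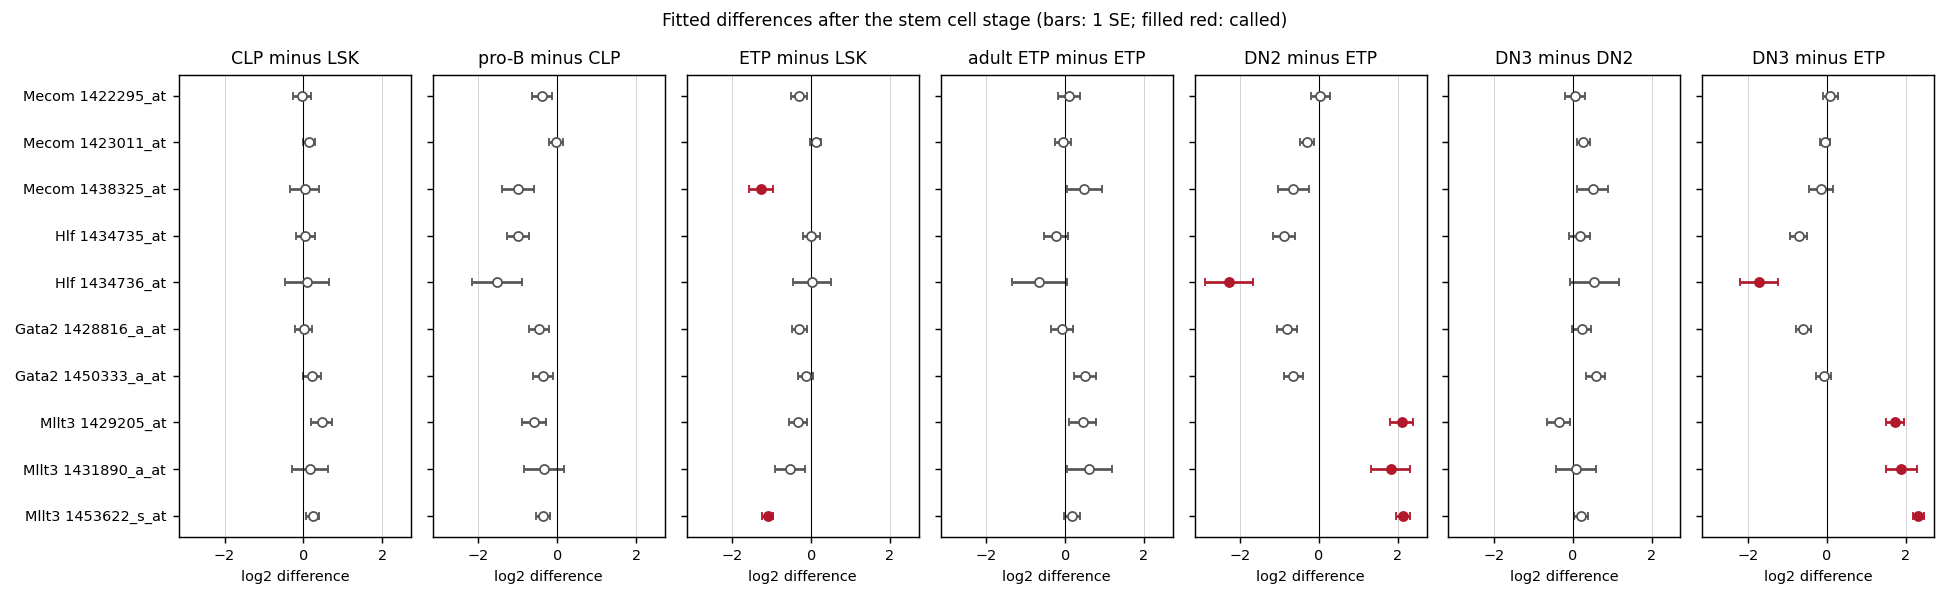
Fitted log2 differences (horizontal axis) of each member probe set in the 7 comparisons that do not involve HSC; points are fitted differences, bars 1 SE, and filled red points are called. Mllt3 stands to the right in DN2 minus ETP and DN3 minus ETP at all 3 probe sets, and Hlf 1434736_at to the left.

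After HSC, the planned steps called Mecom, Hlf or Mllt3 at single or few probe sets. Between ETP and LSK 2 of 10, 1 of Mecom and 1 of Mllt3, were called lower (0.773% of all probe sets) and 0 higher (0.653%). Between DN2 and ETP 3 were called higher, all of them Mllt3 (1.33% of all probe sets), and 1 lower, of Hlf (1.28%). In DN3 against ETP, not a planned step but added after the data were seen, 3 were called higher (2.09%) and 1 lower (3.04%), the same probe sets. These comparisons share the ETP arrays. Between DN3 and DN2 0 of 10 were called by limma (1.95% of all probe sets in either direction), and 1 had an unadjusted p under 0.05. Between CLP and LSK 0 of 10 were called (0.271%) and 0 had an unadjusted p under 0.05, and the same counts held between adult ETP and ETP (0.173%). Between pro-B cells and CLP 0 of 10 were called (5.04%), with 3 at an unadjusted p under 0.05. Of these, Hlf 1434735_at differed by -0.99 (adjusted p = 0.016), just under 2-fold, Hlf 1434736_at by -1.52 (adjusted p = 0.117) and Mecom 1438325_at by -1.01 (adjusted p = 0.102). Without CLP 1 and CLP 2, the CLP arrays with the highest neutrophil markers (8.63 and 7.54), both Hlf probe sets were called lower in pro-B cells. The differences were -1.16 at 1434735_at (adjusted p = 0.0272) and -2.38 at 1434736_at (adjusted p = 0.037). That omission kept CLP 3, the CLP array with the highest stem cell markers, where Hlf 1434736_at stood at 8.41. With CLP 3, LSK 1 and LSK 2 omitted instead, neither Hlf probe set was called in pro-B cells against CLP. There 1434735_at differed by -0.85 (adjusted p = 0.0533) and 1434736_at by -0.72 (adjusted p = 0.201).

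Other cell types' markers moved with some of these values. CLP 3, LSK 1 and LSK 2 had the highest stem cell markers of their population within its set, and Hlf 1434736_at stood at 8.41, 8.34 and 7.35. The other CLP arrays stood at 4.80 to 5.45, LSK 3 of set 1 at 5.25 and the LSK arrays of set 2 at 5.17 to 5.32. Mecom 1438325_at stood at 6.20, 6.05 and 6.51 on CLP 3, LSK 1 and LSK 2. With these 3 arrays omitted, a choice made with their values known, Hlf 1434736_at was lower than in HSC by a difference of -5.70 in LSK and -5.77 in CLP. Mecom 1438325_at was lower by -5.64 in LSK and -5.48 in CLP, and its difference between ETP and LSK was -0.67 (adjusted p = 0.176), no longer called. The Mllt3 call at 1453622_s_at between ETP and LSK was lost as well, at -0.98 (adjusted p = 3.88e-05), just under 2-fold. The part of stem cell transcripts in the intermediate Hlf and Mecom levels was not tested.

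**Figure D3:**
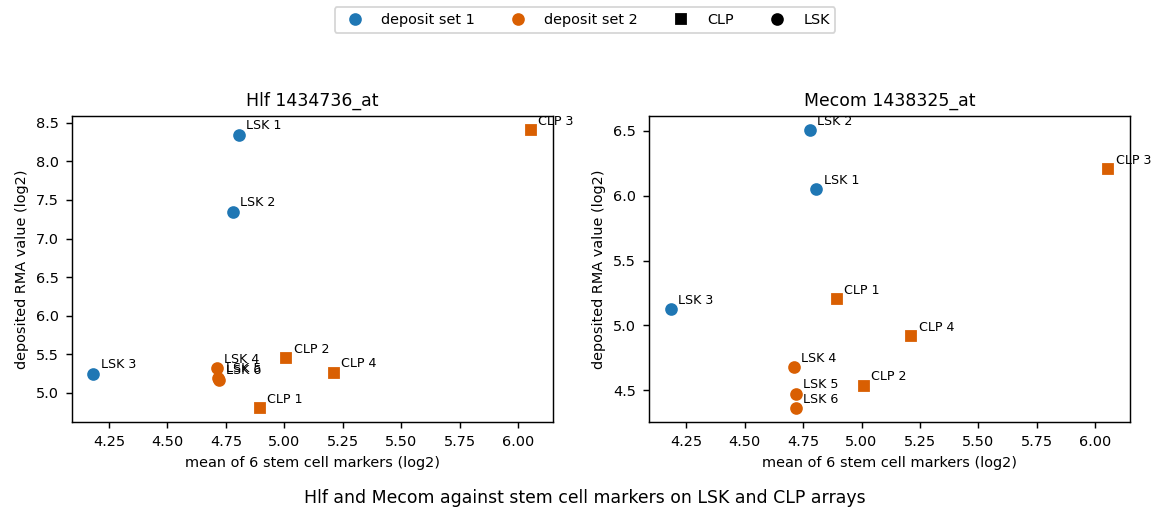
Deposited log2 value of Hlf 1434736_at (left) and Mecom 1438325_at (right) against the mean of 6 stem cell markers on the same array, for the CLP arrays (squares) and LSK arrays (circles), with set 1 in blue and set 2 in orange; levels are to be read within a set. CLP 3, LSK 1 and LSK 2 have the highest values of both genes.

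Endothelium and stroma markers varied among the HSC arrays, with means of 5.03, 6.47 and 5.14 on HSC 1 to 3 and 8.16, 7.57 and 6.65 on HSC 4 to 6. HSC 2 was the highest HSC array of set 1 for Mecom 1422295_at (7.19) and Hlf 1434736_at (10.83), and the lowest for Mecom 1438325_at (10.02) and both Gata2 probe sets. In set 2, HSC 4 was the highest for Mecom 1422295_at (7.38), Mecom 1423011_at (4.74) and Hlf 1434735_at (9.99), and HSC 5 for Gata2 1428816_a_at (11.20) and 1450333_a_at (8.77). HSC 6, with the lowest marker mean of set 2, was the highest for Mecom 1438325_at, Hlf 1434736_at and the 3 Mllt3 probe sets. Without HSC 2, HSC 4 and HSC 5, 9 of 10 member probe sets were called lower in each of the 7 comparisons with HSC, and Mecom 1438325_at differed between LSK and HSC by -5.19. Of the 8 endothelium and stroma markers, 4 were called lower in LSK than in HSC (Cdh5, Kdr, Emcn and Col1a2), beside 4.04% of all probe sets. Megakaryocyte and erythroid markers, a lineage in which Gata2 and Mecom also act, averaged 4.16 to 4.76 and 5.13 to 5.53 in the later populations of sets 1 and 2, against 4.94 to 5.29 and 5.92 to 5.99 on HSC arrays. Of their 8 measured members, Pf4 and Epor were called lower in LSK (4.04% of all probe sets). Mast cell and basophil markers, cells that also use Gata2, averaged 5.03 to 5.21 on DN2 arrays, against 4.03 to 4.18 on HSC arrays of set 1. Of the 7 measured markers in that list only Cpa3, a mast cell protease also known from early progenitors, was called in DN2 against HSC (higher by a log2 difference of 6.77), and the list's median difference was 0.08. The part of these lineages in the members' levels was not tested.

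Of the 6 partners of Gata2, Tal1 and Lmo2 were lower than in HSC in all 7 populations, Tal1 by log2 differences of -1.80 in CLP to -4.11 in DN3 and Lmo2 by -1.98 in LSK to -7.80 in DN3. Lyl1 in LSK differed from HSC by 0.67, Erg by -0.49, Fli1 by -0.53 and Runx1 by -0.21, all uncalled. In LSK against HSC 2 of 6 were thus called lower (4.04% of all probe sets) and 0 higher (3.36%). The median difference was -0.51 against 0.01 over all probe sets. In DN3 5 of 6 were lower than in HSC (Tal1, Lyl1 by -3.91, Lmo2, Erg by -2.68 and Fli1 by -1.10) and Runx1, which T cells use throughout their development, was higher by 1.01. The median of the list in DN3 was -3.29 against 0.09 over all probe sets (6.67% called lower and 3.98% higher). Lmo2 was lower in DN2 than in ETP by -4.42 (adjusted p = 4.32e-12), and Lyl1 in DN3 than in DN2 by -4.10 (adjusted p = 1.03e-12). Gata3, the GATA factor of T cells, was higher in ETP than in LSK (1.16, adjusted p = 0.00275) and in DN2 than in ETP (2.18, adjusted p = 7.41e-06). Trps1, a repressor that binds GATA letters, was higher than in HSC in LSK (1.66), CLP (1.02), ETP (1.59), DN2 (2.32) and DN3 (2.21). Gata1, the erythroid member, and its cofactors Zfpm1 and Zfpm2 were called in none of the 14 comparisons.

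**Figure D4:**
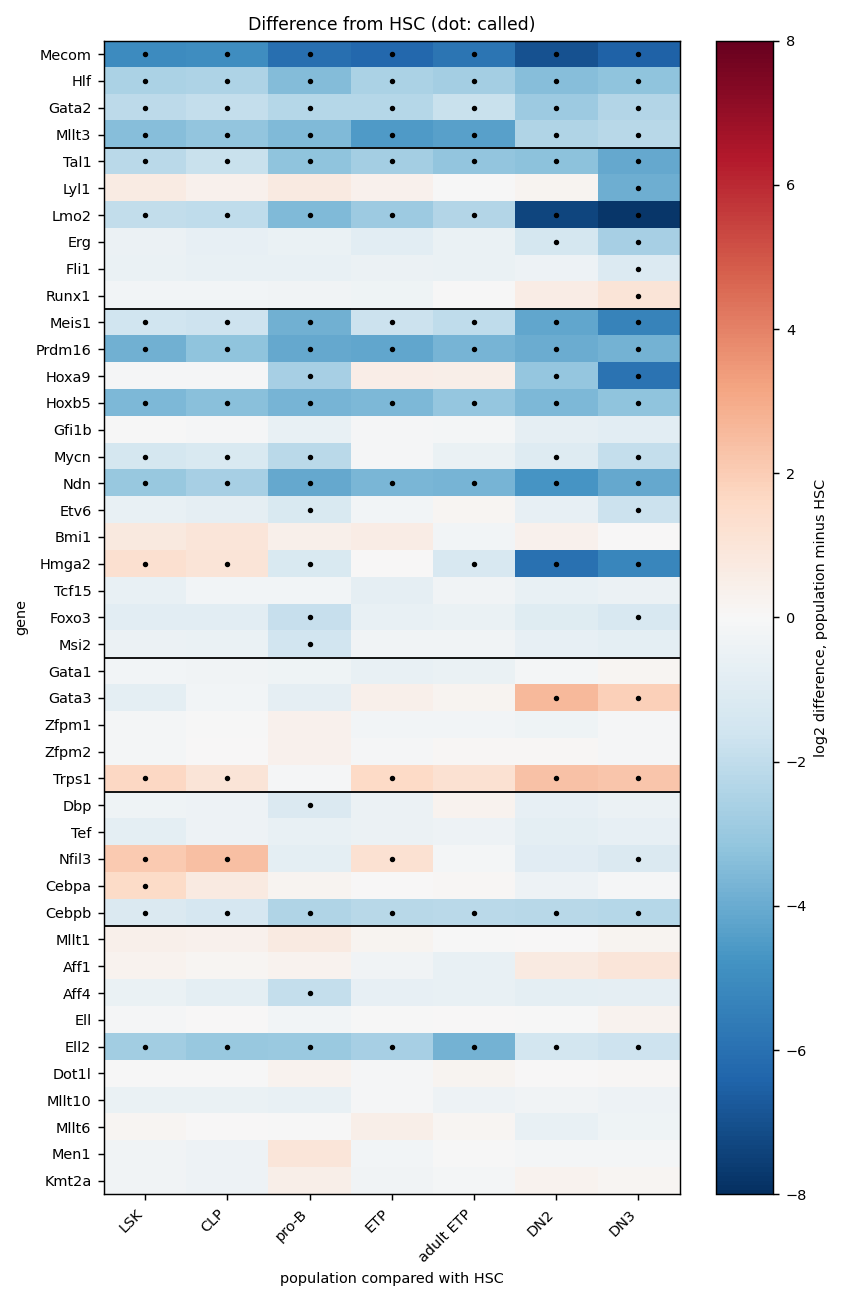
Log2 difference from HSC (colour, blue lower and red higher) of the 4 member genes, at the probe set with the highest mean, and of the listed partners and relatives, in each later population; black dots mark called genes and lines separate the lists. The 4 members, Tal1, Lmo2, Meis1, Prdm16, Hoxb5, Ndn, Cebpb and Ell2 are called lower in all 7 columns.

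Among 13 measured other regulators of stem cells, 5 were called lower in LSK than in HSC (4.04% of all probe sets) and 1 higher (3.36%). Their median difference was -0.60. Prdm16, a close relative of Mecom, was lower by -3.87 in LSK (adjusted p = 4.15e-12) and by -3.20 to -4.13 in the 7 populations. The homeobox gene Hoxb5 was lower by -3.62 in LSK, and Ndn, a growth-restraining gene, by -3.06. Meis1, a homeobox partner of Hox proteins, was lower by -1.59 in LSK and -1.70 in ETP, and was lower in DN2 than in ETP (-2.46, adjusted p = 6.78e-07). Hoxa9 differed by -0.11 between LSK and HSC and by 0.53 between ETP and HSC, both uncalled, and was lower in DN2 than in ETP by -3.59 (adjusted p = 1.25e-13). Hmga2, a chromatin protein of fetal and neonatal stem cells, was higher in LSK than in HSC (1.25) and lower in DN2 than in ETP (-5.95, adjusted p = 6.42e-19). In DN2 against ETP, 4 of the 13 were lower (1.28% of all probe sets) and 0 higher (1.33%). In pro-B cells against HSC 10 were lower (6.26%), and in DN3 against HSC 9 (6.67%), with 0 higher (6.65% and 3.98%).

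Of the corepressors and relatives of Mecom, 6 were measured, with a median difference of 0.15 between LSK and HSC. Prdm16 apart, only Ctbp2, a corepressor that EVI1 binds, was called against HSC, lower by -1.05 in DN2 and -1.40 in DN3. Among 5 leucine zipper relatives of Hlf, Nfil3, which binds the same DNA letters as Hlf and represses, was higher than in HSC in LSK (2.08), CLP (2.42) and ETP (1.19). It was lower in DN2 than in ETP (-2.09, adjusted p = 1.97e-05) and in pro-B cells than in CLP (-3.23, adjusted p = 1.3e-08), and lower in DN3 than in HSC (-1.13, adjusted p = 0.000507). The PAR member Dbp was called only in pro-B cells against HSC, at -1.14, and Tef in no comparison with HSC. Cebpb was lower than in HSC in all 7 populations (-1.16 in LSK to -2.41 in pro-B cells), and Cebpa, a myeloid factor, was higher in LSK than in HSC (1.53) and lower in ETP than in LSK (-1.51).

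Of 10 measured partners of Mllt3, Ell2, a subunit of the elongation complex, was lower than in HSC in all 7 populations. Its differences were -2.80 in LSK, -2.63 in ETP, -3.77 in adult ETP and -1.63 in DN3. In DN2 it was higher than in ETP by 1.14 (adjusted p = 0.0425), and in DN3 by 1.00 (adjusted p = 0.00658), while Mllt6 was lower in DN2 than in ETP by -1.07 (adjusted p = 0.00292). Aff1, a scaffold of the elongation complex, was higher in DN3 than in ETP by 1.23 (adjusted p = 1.51e-06), and in DN2 it differed by 0.97, under 2-fold. Dot1l differed from HSC by -0.05 in LSK and 0.11 in DN3, uncalled. In LSK against HSC 1 of the 10 was lower (4.04% of all probe sets) and 0 higher (3.36%), with a median of -0.17. In DN2 against ETP 1 was higher (1.33%) and 1 lower (1.28%).

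The profiles of Mecom, Hlf and Gata2 resembled each other more than that of Mllt3, as measured by Pearson's r over the 36 arrays with the set effect removed, at the probe set with the highest mean. The r was 0.94 between Mecom and Hlf, 0.939 between Mecom and Gata2 and 0.912 between Hlf and Gata2, and 0.779, 0.666 and 0.699 between Mllt3 and Mecom, Hlf and Gata2. The points share arrays, sets and the HSC population, and these values are a description. Among 18192 other genes, those most like Mecom were Col4a2 (0.976), Fgd5 (0.971), Col4a1 (0.969), 8430419K02Rik (0.967) and Myct1 (0.966). Those most like Hlf were Procr (0.948), which encodes the protein C receptor of stem cells, Neurl3 (0.943), Mecom (0.94), Myct1 (0.938) and Tbxas1 (0.936). Gata2 was most like Pdzk1ip1 (0.953), Scarf1 (0.952), Tgm2 (0.951), Meg3 (0.949) and Fam110c (0.947). Mllt3 was most like Ppic (0.936), the integrin gene Itga6 (0.921), Dlg3 (0.912), Tgfbr3 (0.907) and Slamf1 (0.9), the gene of CD150 by which the HSC were sorted.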

How the data were processed

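Sorted cells' total RNA was extracted with Trizol, amplified and biotin-labelled, per the labels. The deposited values were made with RMA (background correction, normalization across arrays and a summary over the probes of a set), which the submitters' processing notes name. Their log base is nowhere given, and the deposited values were read as log2. The RMA version is not given in the sources used here. Of 45101 rows 64 controls were left out, and 45037 probe sets were tested. The platform annotation names exactly 1 gene for 34945 of them, several for 932 and none for 9160. There were 0 missing values and 0 unused sample columns. Precision is limited by the number of arrays, which have no read depth. The highest correlation between any pair of arrays was 0.988, so no pair held identical values.

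The lmFit and eBayes functions of limma 3.58.1 (R 4.3.3) fitted population and deposit set over all 36 arrays, with Benjamini-Hochberg adjustment over all probe sets. Called means adjusted p under 0.05 and at least 2-fold. Differences are the first population minus the second, over 13 planned comparisons, and DN3 against ETP was added after the data were seen. Differences between sets were tested with an interaction term on 24 arrays. List genes were read at their probe set with the highest mean. The members, lists and tests were chosen with earlier results of these data known. Named genes are all members, for each member the 5 genes with the highest r, and of each list the called members of largest difference; relatives and partners could be named as well. Some genes of the lists are not reported here. The fits were tested on simulated data. Figures and motif searches used Python 3.11.15 with pandas 2.3.3, numpy 2.4.6 and matplotlib 3.10.9. Alternatives covered the set term, scaling, filter, fold threshold, array weights, choice of probe set, replicate block and arrays left out.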

Additional observations from a re-analysis of the deposited data

Results flagged for a closer look

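Within a population, with the fitted set effect removed, 2 of 50 groups of arrays had an array far from the others (chance gives about 5%). Mecom 1422295_at was low on LSK replicate 3, at 4.09 against 4.51 to 4.73 on the other LSK arrays, a gap of 0.659 of the whole range. Its deposited value there was 3.85. Hlf 1434736_at was high on ETP replicate 2, at 7.26 against 5.70 to 6.10 on the other ETP arrays, a gap of 0.742 of the range, and its deposited value was 7.47. The difference of Hlf 1434735_at between DN3 and HSC was unlike in the deposit sets, -3.89 in set 1 and -2.55 in set 2. The interaction had adjusted p = 0.0324 (limma, over all probe sets).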

How the results depend on the processing

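No called difference changed direction (0 reversed). Of 73 member tests called, 67 were called under every alternative run, and of 67 not called 54 stayed so. Against HSC, 9 of 10 were called in all 7 comparisons with any array left out, and 4 of 4 with 1 probe set a gene or the mean of its probe sets. For ETP against LSK the count of 2 became 0 within set 2, with treat against 1.5-fold, with the mean of the probe sets and without CLP 3, LSK 1 and LSK 2. It became 1 among the 7 members with a mean above the median, with array weights and without LSK 1 and LSK 3, and 1 to 2 with an array left out (1 without LSK 1, LSK 2 or ETP 4). For DN2 against ETP the 4 became 2 with treat and with the mean of the probe sets, 1 with 1 probe set a gene, and 2 to 4 with an array left out (2 without DN2 2 or DN2 3). For DN3 against ETP the 4 became 1 and 2 with these gene rules. For pro-B cells against CLP the 0 became 1 within set 2, with quantile normalization, with no fold threshold and with the mean of the probe sets. It became 2 without both CLP arrays of highest neutrophil markers, and 0 to 1 with an array left out (1 without CLP 1, CLP 4, ProB 2 or ProB 3). The number of member differences between sets in LSK, ETP and DN3 against HSC, 1, became 2 with quantile normalization and 0 to 3 with an array left out (0 without HSC 2, HSC 5, DN3 1, DN3 2, DN3 5 or DN3 6, 2 without HSC 4 or DN3 4, 3 without LSK 3). Fewer features enter with 1 value a gene; for the other changes the cause was not tested.

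Replicate numbers gave no sign of pairing: over 55 pairs of the same number the deviations correlated at -0.144 to 0.176 (median -0.00325), with 3 over 0.1. Over 206 pairs of different numbers they correlated at -0.227 to 0.215 (median 0.00014), with 16 over 0.1. Deviations from the mean of a few arrays constrain each other, so this check cannot exclude pairing. With the replicate number as a block, pro-B cells against CLP had 1 call (Hlf 1434735_at, -1.01, adjusted p = 0.0341), and the other counts run with the block stayed within 1.5 times.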
